A study of Mus musculus with 6 samples.

Results

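The IFIT and OAS genes encode 2 families of antiviral proteins that bind foreign RNA. The group described here holds 10 of the 55414 genes in the deposited table: Ifit1, Ifit2, Ifit3 and Ifit3b of the IFIT family, and Oas1a, Oas1b, Oas2, Oas3, Oasl1 and Oasl2 of the OAS family. All 10 symbols matched 1 Ensembl identifier each. The members were chosen by measured values: the group was picked because Ifit1 and Oasl1 were higher in the treated cells. For this reason the difference between treated and control cells in these genes is given as a description, and which members passed a threshold over all genes is stated without support being drawn from it.

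RNA sequencing was done on TM4 cells, an established line from mouse testis that stands in for the Sertoli cell, which nurses developing germ cells. All 6 libraries came from this 1 line; 3 were untreated controls and 3 belonged to a group labelled VC, with no dose or exposure time given. The labels disagree on what VC received, since the titles point to vitamin C and a sample characteristic names valine, so the group is called VC throughout. Nothing in the labels says that replicates were separate cultures, and the spread between them may be technical.

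Interferons made by a virus-exposed cell signal through the receptor subunits Ifnar1 and Ifnar2 to a complex that includes Stat2 and Irf9, which binds interferon-stimulated response elements (ISREs) beside its target genes. IFIT proteins are built of tetratricopeptide repeats, bind the ends of RNA that lacks the methyl marks of the host's own caps, and block its translation. OAS enzymes bind double-stranded RNA and make 2′-5′-linked oligoadenylates (2-5A), a second messenger that leads to the decay of RNA. Some OAS-like proteins make none and act in other ways. In tissues these genes are usually held low until interferon or viral RNA appears.

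The promoters are shown first, because the ISRE is the sequence through which this group is known to respond to interferon. RefSeq windows on build GRCm38.p6, from 250 bases before to 50 after an annotated start, were found for 8 of the 10 members; Oas1b and Oas2 had no entry. The ISRE was searched as GAAA, 2 bases of any kind and GAAA again, on both strands, and matches were allowed to overlap. The stretches run 5′ to 3′ on the gene's strand, from 30 bases before the first match to 40 after the last or to the start, with the matches in capitals. Ifit1, Ifit3 and Ifit3b lie on chromosome 19, and Oas1a, Oas1g and Oas3 on chromosome 5; Oas1g is a close copy of Oas1a and no member.
Ifit1, chr19:34640755-34640853, plus strand: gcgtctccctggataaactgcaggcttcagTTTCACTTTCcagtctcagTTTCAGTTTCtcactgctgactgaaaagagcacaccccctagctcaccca
Ifit3, chr19:34583343-34583456, plus strand: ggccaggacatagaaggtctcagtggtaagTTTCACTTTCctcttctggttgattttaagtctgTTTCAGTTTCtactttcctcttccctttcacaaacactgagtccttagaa
Ifit3b, chr19:34607739-34607852, plus strand: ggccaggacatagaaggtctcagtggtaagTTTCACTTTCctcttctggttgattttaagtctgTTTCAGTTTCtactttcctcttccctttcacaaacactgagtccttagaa
Oas1a, chr5:120907526-120907575, minus strand: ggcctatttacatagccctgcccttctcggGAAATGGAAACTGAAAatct
Oas1g, chr5:120887614-120887661, minus strand: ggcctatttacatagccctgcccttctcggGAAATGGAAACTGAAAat
Oas3, chr5:120777685-120777764, minus strand: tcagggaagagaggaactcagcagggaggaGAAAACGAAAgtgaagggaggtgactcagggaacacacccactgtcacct

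Of the 8 members with a window, 5 held an ISRE match, against 3.44% of all 32851 windows of the same length. The match was not particular to the members. Of 6 other genes of both families with a window, 4 also held it: Ifit1bl1, Ifit1bl2, Oas1c and Oas1g. Ifit1, Ifit3, Ifit3b and Oas1a each had 2 matches, which 0.225% of all windows had at least. The starts of the paired matches lay 19 bases apart in Ifit1, 34 in Ifit3 and Ifit3b, and 6 in Oas1a, where they overlap. No match was found in the windows of Ifit2 (2 annotated starts), Oasl1 or Oasl2. A second motif, the gamma-activated site TTCNNNGAA, stood in 8.3% of all windows and, among members, in those of Ifit2 and Oas1a only. The 2 sites of Ifit1 are also those of Ifit1bl2, an IFIT relative on the opposite strand whose window shares 245 bases with that of Ifit1. These are matches of letters within a fixed window, and binding was not measured.

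**Figure D1:**
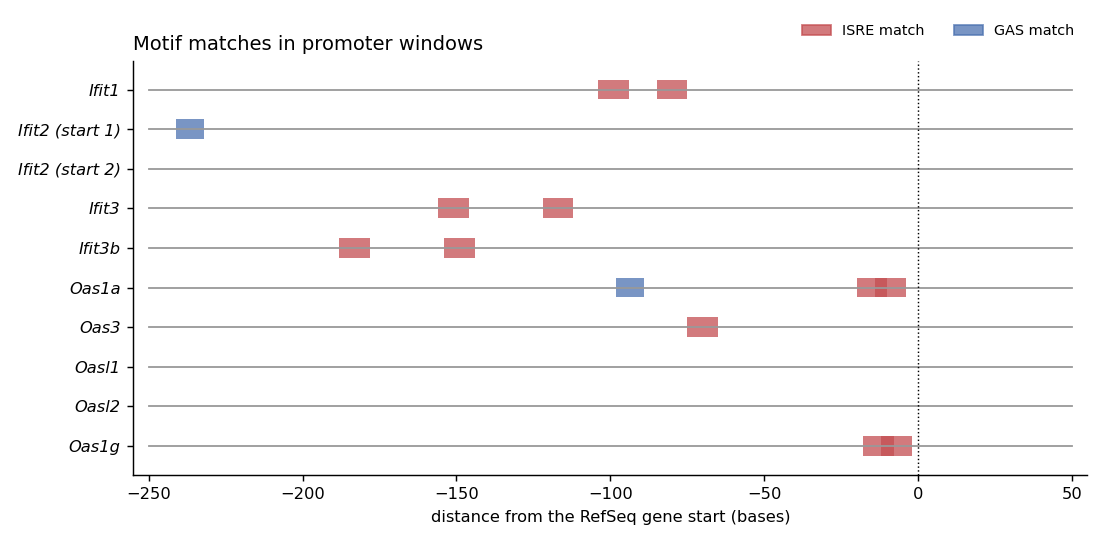
Positions of ISRE matches (red) and gamma-activated site matches (blue) along the RefSeq promoter windows of the members and of Oas1g; the x axis is the distance from the annotated start in bases, 1 line per start. Of the 8 members shown, 5 have ISRE matches, and Ifit2, Oasl1 and Oasl2 have none in these windows.

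The deposited values, called scaled TPM here, are length-normalised transcript abundances (TPM) multiplied by 1 factor for each library. Being divided by gene length, they can be compared between genes. Reads recovered from the values of genes with a known exon length (52133 of 55414) summed to 20408434 to 22316868 per library. Control replicate 3 stood apart: in a chi-square comparison of reads over genes, pairs that include it gave 8.76 to 15.6 per degree of freedom and all other pairs 2.65 to 6.69. Changes are therefore also given without it. Among Sertoli markers Gata4 and Sox9 were present, while Wt1, Fshr, Dmrt1 and Shbg were at 0 in every library (4 of 12). The 10 macrophage markers summed to 55.8 to 66.1 scaled TPM in control and 61.1 to 71.5 in VC, nearly all of it Cd14; Ptprc was at most 0.007 and Adgre1 at 0. The 5 endothelial markers summed to at most 2.25, the 6 Leydig markers to at most 3.53 and the 6 germ cell markers to at most 0.557. None of these marker genes passed limma's adjusted threshold over all genes (1, Gata4, had an unadjusted p under 0.05, and limma-voom called 0), and their part in the members' differences was not tested. In such bulk RNA, fewer cells of a type and less RNA per cell cannot be told apart.

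In control cells the members ranged from among the better expressed genes to barely detected. Ifit2 stood highest at 26.3 ± 2.78 scaled TPM (mean ± SD, n = 3 here and below), followed by Ifit1 at 16.4 ± 0.608 and Oasl1 at 6.97 ± 0.679. Their ranges did not touch. Ifit3, Ifit3b, Oasl2 and Oas1a followed at means of 3.30, 2.74, 2.11 and 1.998, and neighbours in this order did not differ beyond their spread. Oas1b was at 0.796 ± 0.207, and Oas3 and Oas2 were lowest at 0.173 ± 0.0908 and 0.0863 ± 0.127. Ifit2 ranked at percentile 79.8 of all genes with a control mean above 0, Ifit1 at 73.4, and Oas2 at 16.7. In VC the order was the same but for Oas1a and Oasl2, which changed places within their spread, and Ifit1 no longer lay apart from Ifit2.

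**Figure D2:**
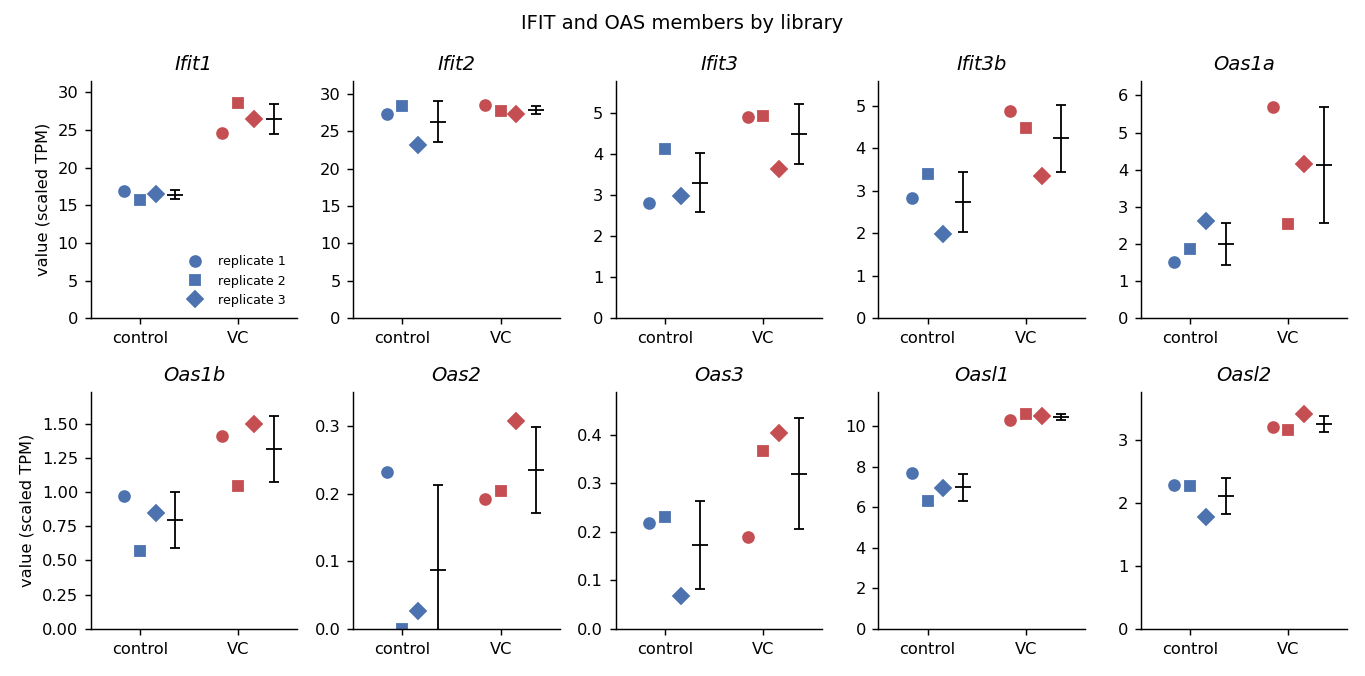
Value of each member in each library (scaled TPM, axes from 0): blue points are control and red points VC libraries, the marker shape is the replicate number, and black bars are mean ± SD (n = 3; the bar of Oas2 in control is cut at 0). Ifit1, Oasl1, Oasl2 and Oas1b have every VC point above every control point, and the groups of the other 6 overlap.

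All 10 members had a higher mean in VC, Oas2 and Oas3 on at most 11 and 23 reads in any library. How many of all genes did so was not counted. In 4 of the 10 (Ifit1, Oas1b, Oasl1 and Oasl2) every VC value lay above every control value, which held for 13.9% of all 13972 genes tested. A gene was tested if its value was at least 1 in at least 3 libraries, and 8 members met this, these 4 among them. Oas1b did so only through its 3 VC values, so that its groups had to differ. By limma on log2(value + 1), 2 of the 10 members, Ifit1 and Oasl1, passed an adjusted p of 0.05 over all genes. Both were higher in VC, against 0.687% of all genes called in either direction and 0.429% called higher in VC. Since this contrast chose the group, nothing is read from this count, from that of members without overlap or from that of higher means. With 1 library left out, limma called no member without control replicate 1, control replicate 2, VC replicate 1, VC replicate 2 or VC replicate 3, and Ifit1 alone without control replicate 3. It called neither without the intensity trend in the prior variance, and Ifit1 alone with no filter or with quantile normalization. Fitting the recovered reads with limma-voom added Oasl2, for 3 members against 3.98% of all genes in either direction and 2.48% higher in VC.

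Ifit1 (ENSMUSG00000034459) binds capped RNA that lacks the host's ribose methyl mark. It was at 16.9, 15.7 and 16.5 scaled TPM in control replicates 1 to 3 and at 24.5, 28.5 and 26.5 in VC, on 332 to 364 and 535 to 584 reads. No VC value came near a control value. The ratio of the means was 1.62, and the log2 fold change on the log2(value + 1) scale was 0.66 (SE 0.064), or 0.67 without control replicate 3. The control spread (SD 0.608) was below the 0.878 that counting reads alone would give, while the VC spread (SD 1.99) was above its 1.118.

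Ifit2 (ENSMUSG00000045932), which binds AU-rich double-stranded RNA, was the most abundant member and moved least. Its values were 27.3, 28.4 and 23.1 in control and 28.5, 27.7 and 27.4 in VC, on 754 to 917 reads, and the groups overlap. The only value that stood off was the low one of control replicate 3. The ratio of means was 1.06 and the log2 fold change 0.09 (SE 0.077), and it was -0.00026 without control replicate 3. The value of Ifit1 was 0.619, 0.554 and 0.714 of that of Ifit2 in the 3 controls, and 0.863, 1.03 and 0.967 in VC. This ratio, in which the scaling of each library cancels, was 0.629 ± 0.0803 in control and 0.953 ± 0.0842 in VC, without overlap. Ifit1 helped to choose the group, so the ratio is a description.

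Ifit3 (ENSMUSG00000074896) and Ifit3b (ENSMUSG00000062488) are neighbouring copies that bind and modulate other IFIT proteins and their partners. Ifit3 was at 2.81, 4.11 and 2.97 in control and 4.89, 4.91 and 3.63 in VC, and Ifit3b at 2.84, 3.40 and 1.99 and at 4.87, 4.48 and 3.35. In both genes VC replicate 3 lay below control replicate 2 and above the other 2 controls, and the remaining VC values lay above all controls. The log2 fold changes were 0.35 (SE 0.16) for Ifit3 and 0.49 (SE 0.18) for Ifit3b, and 0.30 and 0.34 without control replicate 3. Reads of this pair cannot all be told apart: 41.1% of the 75-base windows of Ifit3 transcripts also occur in Ifit3b (GENCODE M21), while neither the read length nor the handling of reads with several matches is given in the labels. The split was near even, with Ifit3 taking 46.3% to 56.6% of the pair's 76 to 150 reads. This does not show whether the reads were told apart. Added together, the pair was at 5.65, 7.505 and 4.955 in control and 9.76, 9.38 and 6.98 in VC, so the sum also overlapped. Their promoter windows were 94.5% identical over 274 aligned positions.

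Oas1a (ENSMUSG00000052776) is a 2-5A synthetase. It was at 1.51, 1.87 and 2.62 in control and 5.69, 2.55 and 4.15 in VC, on 22 to 88 reads. VC replicate 1 was high and VC replicate 2 lay within the controls. The ratio of means was 2.07, the highest of the members without a value of 0, but the log2 fold change of 0.74 had an SE of 0.25 (0.89 without control replicate 3). The SD among VC libraries was 1.57 against 0.516 from counting alone.

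Oas1g, its copy, shares 47.6% of the 75-base windows of Oas1a and was at 1.05, 1.075 and 1.03 in control and 0.573, 1.885 and 1.91 in VC. In VC replicate 1 the pair split unlike the other libraries. Oas1a took 88 of 99 reads there, or 88.9% (95% exact Clopper-Pearson interval 81.0 to 94.3, counting error only), and 52.1% to 67.2% in the other 5. The highest lower bound among those 5 was 54.0% and the highest upper bound 78.7%. The sum of both genes was 2.555, 2.94 and 3.65 in control and 6.26, 4.43 and 6.06 in VC. Unlike Oas1a or Oas1g alone, the sum did not overlap between the groups (3.05 ± 0.555 and 5.59 ± 1.00).

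**Figure D3:**
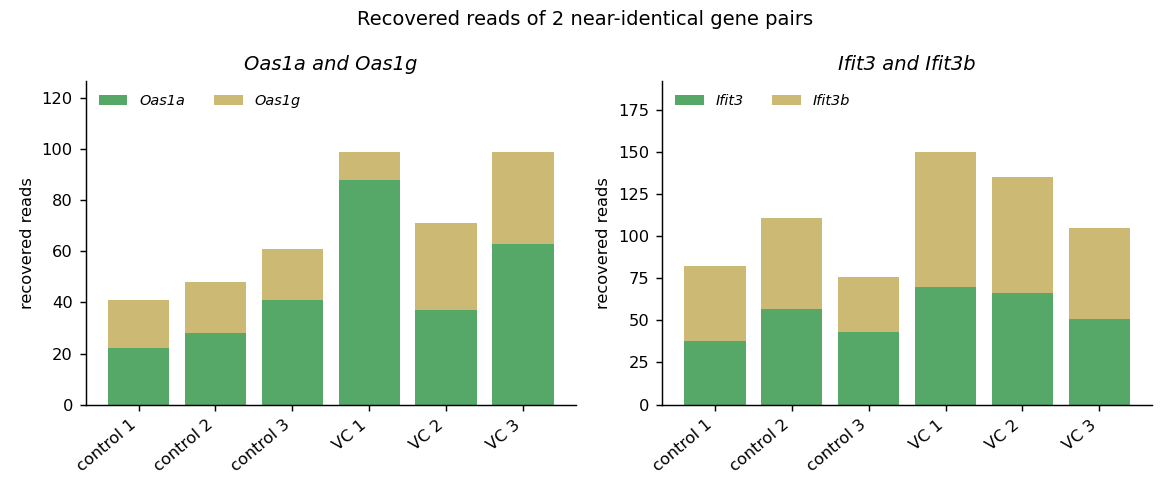
Recovered reads per library (y axis) of 2 pairs of genes that share part of their transcript sequence, stacked. Oas1a with Oas1g is on the left and Ifit3 with Ifit3b on the right. The Oas1a pair has 41 to 61 reads in control and 71 to 99 in VC, and VC replicate 1 has 88 of 99 in Oas1a.

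Oas2 (ENSMUSG00000032690) and Oas3 (ENSMUSG00000032661) are the larger synthetases, with repeated OAS units. Both stayed below the filter. Oas2 was at 0.232, 0 and 0.027 in control and 0.192, 0.204 and 0.307 in VC, on at most 11 reads, and Oas3 at 0.219, 0.231 and 0.068 and at 0.19, 0.367 and 0.404, on at most 23. Their groups overlap, and neither gene was fitted.

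Oas1b (ENSMUSG00000029605) is the flavivirus resistance gene of mice, which in most laboratory strains carries a premature stop. It was at 0.972, 0.568 and 0.847 in control and 1.41, 1.04 and 1.496 in VC, on 9 to 24 reads. The VC values lay above the controls by a small margin. The ratio of means was 1.65 and the log2 fold change 0.37 (SE 0.18), or 0.39 without control replicate 3. The 1 added before taking logs shrinks the change of genes at low values. The members' log2 fold changes therefore do not rank them by ratio.

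Oasl1 (ENSMUSG00000041827) makes no 2-5A and is known to hold back translation of Irf7. It was at 7.67, 6.32 and 6.93 in control and at 10.28, 10.6 and 10.48 in VC, on 131 to 155 and 213 to 220 reads. The VC libraries lay close together and clear of the controls. The VC spread (SD 0.1601) was smaller than the 0.709 that counting alone gives, so it says little about the spread between cultures. The ratio of means was 1.499 and the log2 fold change 0.53 (SE 0.077), or 0.52 without control replicate 3. Exons of Oasl1 overlap those of an antisense gene over 38 bases (1.46% of its exon length), and the labels do not say whether counting used strand, so reads there cannot be assigned to 1 of the 2.

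Oasl2 (ENSMUSG00000029561), the other OAS-like protein, was at 2.29, 2.27 and 1.78 in control and 3.21, 3.155 and 3.41 in VC, on 94 to 115 and 155 to 175 reads. The groups did not overlap. The ratio of means was 1.54 and the log2 fold change 0.46 (SE 0.12), or 0.38 without control replicate 3. The ratio of Oasl1 to Oasl2 was 3.35 ± 0.558 in control and 3.21 ± 0.143 in VC, and the groups overlapped.

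Summed by family, the 4 IFIT members were at 44.6 to 51.6 scaled TPM in control and 60.8 to 65.6 in VC, and the 6 OAS members at 11.3 to 12.9 and 17.9 to 20.97. Without Ifit2 the IFIT sum was 22.4 ± 0.893 in control and 35.2 ± 2.37 in VC. Most of this was Ifit1, which helped to choose the group, at means of 16.4 in control and 26.5 in VC. Ifit1 and Ifit2 made up 84.4% to 88.9% of the IFIT sum in every library, and Oasl1 and Oasl2 made up 64.3% to 77.3% of the OAS sum. By this scale most RNA of the OAS members was of the OAS-like genes Oasl1 and Oasl2. No VC library was highest throughout: VC replicates 1 and 2 held the highest VC value for 3 members each, and VC replicate 3 for 4.

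Of the other 8 genes of both families Oas1g, described above, had the highest values. Oas1d, Oas1e, Oas1f and Oas1h were at 0 in every library. Ifit1bl1, Ifit1bl2 and Oas1c were at most 0.344, 0.553 and 0.889 in any library, with overlapping groups, and of the 8 only Oas1g passed the filter. Ifit1bl2, which shares the 2 ISRE matches with Ifit1, was at 0.281 ± 0.192 in control and 0.495 ± 0.065 in VC, far below Ifit1.

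Of 3 listed genes that act on 2-5A or its effects, none passed limma's adjusted threshold. Abce1, a ribosome recycling factor also known to inhibit the 2-5A response, was at 265.9 ± 7.39 and 257.7 ± 1.03 (limma adjusted p = 0.525). Pde12, which degrades 2-5A, was at 11.03 ± 0.528 and 11.4 ± 0.456 (limma adjusted p = 0.755). Akap7, whose product can also cut 2-5A, was at 2.09 ± 0.391 and 1.74 ± 0.082 (limma adjusted p = 0.580). Every VC value of Akap7 lay below every control value, which held for 11.6% of all genes tested. All 3 genes were tested, and 0 had an unadjusted p under 0.05 by limma or an adjusted p under 0.05 by limma-voom.

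The cap enzymes, which place the marks that IFIT proteins read, also did not pass (4 of 5 tested, 0 called by limma or limma-voom, 0 at an unadjusted p under 0.05). The capping enzyme Rngtt and the guanine methyltransferase Rnmt differed between the groups by -0.03 and -0.04 log2 units. Cmtr2, a ribose methyltransferase, was at 15.4 ± 1.46 and 16.7 ± 0.947 (limma adjusted p = 0.504). Cmtr1, the ribose methyltransferase for the first nucleotide, was below the filter at 0.651, 0.751 and 0.372 in control and 1.116, 0.774 and 1.20 in VC, on 30 to 94 reads, with every VC value above every control value.

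Interferon genes themselves were barely read. Of 10 listed, 7 were at 0 in every library, and none had a read in control. In VC, Ifnb1 had 2 reads in replicate 2 and 1 in replicate 3, Ifne had 2 reads in replicate 3, and Ifng had 5 reads in replicate 3. VC replicate 1 had none. These counts are too low to compare the groups.

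Of 10 genes of interferon signalling, all tested, none passed limma's adjusted threshold, and 4 had an unadjusted p under 0.05, each higher in VC, against 9.05% of all genes higher at that level. In 6 of the 10 every VC value lay above every control value, against 13.9% of all genes, and the list's median log2 fold change was 0.13 against 0.01 over all genes tested. Limma-voom called 3 higher, Stat2, Irf9 and Irf7, against 2.48% of all genes. Stat2 was at 9.39, 7.96 and 7.64 in control and 13.0, 10.8 and 12.1 in VC, a difference of 0.48 log2 units (SE 0.096, limma adjusted p = 0.0829). Irf9 was at 7.87 ± 0.578 and 10.52 ± 0.431 (limma adjusted p = 0.0756), and Irf7, the factor that Oasl1 restrains, at 1.04 ± 0.219 and 1.96 ± 0.247 (limma adjusted p = 0.163). The kinase Jak1 differed by less than its spread, at 72.5 ± 2.42 and 72.4 ± 0.7496.

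RNA sensors detect viral RNA inside the cell or in its endosomes. None of the 7 tested of 8 passed limma's adjusted threshold, 4 were higher at an unadjusted p under 0.05 (9.05% of all genes were), and limma-voom called 4 higher (2.48% of all genes), namely Ddx58, Ifih1, Eif2ak2 and Adar. Ddx58, which encodes the sensor RIG-I, was at 9.72 ± 1.02 and 12.8 ± 0.664 (limma adjusted p = 0.112), and Eif2ak2, the kinase PKR that double-stranded RNA activates, at 27.3 ± 2.60 and 35.6 ± 1.51 (limma adjusted p = 0.0777). Dhx58 was at 1.44 ± 0.236 and 1.49 ± 0.456 (limma adjusted p = 0.975). The list's median was 0.32.

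Of 20 other interferon-stimulated genes 13 were tested, and 3 rose, against 0.429% of all genes: Isg15, a ubiquitin-like modifier, Usp18, which removes it, and Cxcl10, a chemokine. Isg15 went from 44.6 ± 1.73 to 66.3 ± 7.16, Usp18 from 1.85 ± 0.0485 to 3.72 ± 0.251 and Cxcl10 from 13.4 ± 0.814 to 21.7 ± 2.30 (limma adjusted p = 0.0391, 0.0411 and 0.0348). None fell, and the list's median log2 fold change was 0.45. Limma-voom called 8 higher, against 2.48% of all genes. Of these, Ifi44, named after its values were seen, passed the filter only through its VC values. None of the 3 calls was kept in any of the 6 limma fits that left out 1 library. The 20 genes summed to 313.9 to 355.0 in control and 385.5 to 421.7 in VC. These lists were drawn up with earlier results of these data known, so their direction is a description.

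**Figure D4:**
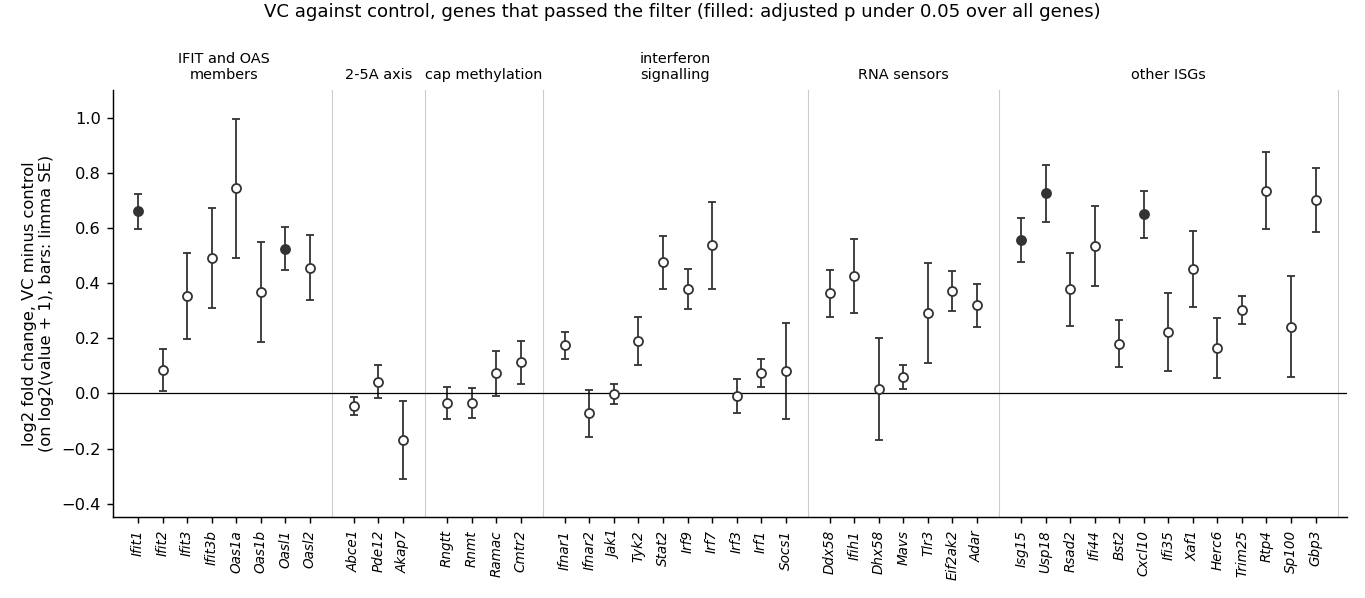
Log2 fold change of VC minus control on log2(value + 1) (y axis) with limma's standard error, for the tested members and the tested genes of 5 lists; filled points passed an adjusted p of 0.05 over all genes. Ifit1, Oasl1, Isg15, Usp18 and Cxcl10 are filled. The genes of the 2-5A axis and cap methylation lie between -0.17 (Akap7) and 0.11 (Cmtr2).

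Each member's profile over the 6 libraries was set against the mean profile of the other tested members. Pearson's r was highest for Oasl2 (0.959), Oasl1 (0.889) and Ifit1 (0.884) and lowest for Ifit2 (0.537). Of 10202 other tested genes with a mean of at least 5, the 6 whose profile was most like the members' mean were Tnfrsf22 (r = 0.999), Prkg2 (0.997), Arf2 (0.997), Vps26a (0.994), Adamts7 (0.993) and Nbr1 (0.993). Tnfrsf22 was at 26.5 ± 0.828 in control and 31.0 ± 0.835 in VC. These r values span 6 libraries that share the split into control and VC and the scaling of each library, and they are a description.

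The fold changes of the 8 fitted members were recomputed under up to 11 other settings and with each library left out. This gave 17 alternatives for 6 members and 16 for Ifit3b and Oas1b. Changing the filter, the intensity trend or the block cannot alter a fold change in this balanced design. Nor can summing paralogues alter that of a member outside the pairs. Those alternatives repeat the reported value and say nothing about its stability. With paralogues summed, the values of Ifit3 and Oas1a are those of their pairs. That of Ifit1 ran from 0.56 to 0.73, that of Oasl1 from 0.37 to 0.59 and that of Oasl2 from 0.22 to 0.64. Oas1a ran from 0.37 to 1.00, Ifit3 from 0.19 to 0.48, Ifit3b from 0.26 to 0.64 and Oas1b from 0.12 to 0.73. The lowest value of each of these 7 came with a pseudocount of 5, which shrinks the change of genes at low values. Ifit2 ran from -0.0003 to 0.156, and it was below 0 without control replicate 3.

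**Figure D5:**
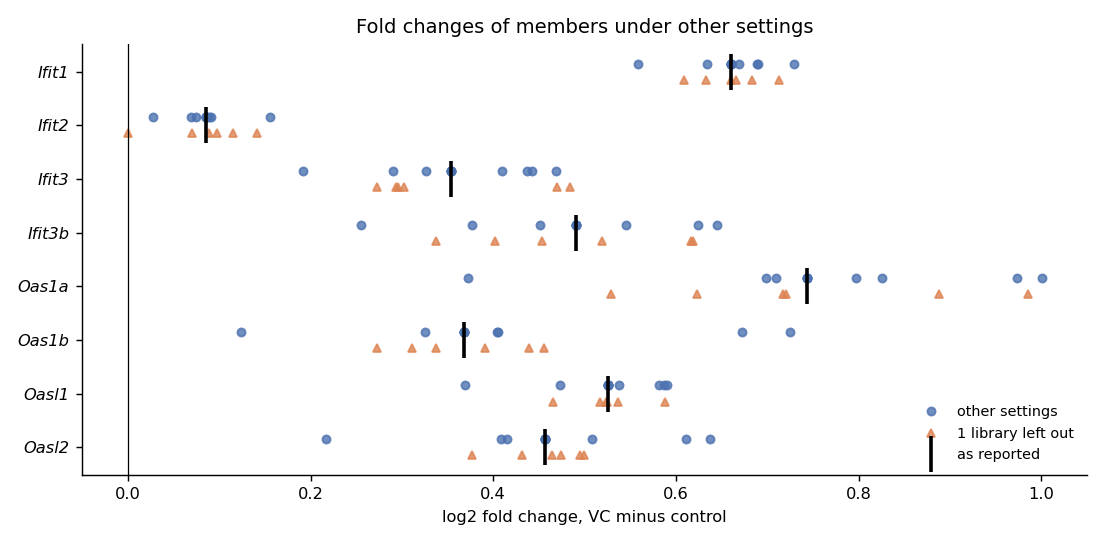
Log2 fold change, VC minus control (x axis), of each tested member as reported (black bar), under other settings (blue points) and with 1 library left out (orange triangles). Ifit2 lies between -0.0003 and 0.156, and every value of the other 7 is above 0.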

How the data were processed

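RNA from TM4 cells was extracted with Trizol and made into TruSeq libraries, per the labels' protocols. Reads were aligned with HISAT2 to GRCm39, per the submitters' processing notes and neither the counting tool nor its annotation is named in the labels. The deposited table holds a non-negative signal for 55414 genes, which behaves as TPM times 1 factor per library; its name points to TMM scaling by the authors. Columns were matched to samples by group letter and number.

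Values were multiplied by GENCODE M21 exon lengths and compared with whole multiples of each library's own step. Only values up to 1000 reads with a small enough rounding error were tested, 15830 to 16306 per library. Of these, 98.7% to 98.9% lay within 0.1 read of a whole number. All 60 member values did so too. These recovered reads gave the totals per library and the limma-voom alternative. No 2 libraries agreed within sampling noise.

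Genes with a value of at least 1 in at least 3 libraries (13972) were fitted as log2(value + 1) in limma 3.58.1 (R 4.3.3). The test was two-sided, with an intensity trend and Benjamini-Hochberg adjustment over all these genes. The procedure was tested on simulated data with the same spread in every library. That setting does not mimic a library that stands apart, as control replicate 3 does here. Lists have no set test. Promoters are RefSeq's, on GRCm38.p6. Alternatives changed the pseudocount, filter, scaling, prior, weights, block, paralogue rows and libraries. Members and lists were chosen with earlier results of these data known. By rule the text could name any gene of the families or of the 2-5A, cap, interferon, signalling and sensor lists, up to 4 called other interferon-stimulated genes, and the 6 genes most like the members. Of the listed pathway genes 2 are not reported here. A comparison of protein sequences between members was planned and is not analysed here. Tables were made with Python 3.11.15 and pandas 2.3.3.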

Additional observations from a re-analysis of the deposited data

How the results depend on the processing

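The number of genes called by limma, 96 (60 higher, 36 lower), became 30 with no filter, 217 with equal totals (182 higher, 35 lower, and a median of all genes of 0.078 in place of 0.012), 6 with no intensity trend, 254 with array weights and 548 by limma-voom. With 1 library left out it ran from 0 to 82: leaving out control replicate 1, 2 or 3 gave 1, 0 and 82 genes, and leaving out VC replicate 1, 2 or 3 gave 0, 0 and 1, while 1637 to 2484 genes had an unadjusted p under 0.05. Fits with 5 libraries have less power. With the replicate number as a block limma called 0 genes (2039 at an unadjusted p under 0.05), 0 members and 0 other interferon-stimulated genes; same-numbered libraries did not deviate together (correlations of -0.0186 to 0.00506), and 0 of 6 libraries correlated best with their own number. The 2 member calls became 1 (Ifit1) with no filter or quantile normalization, 0 with no intensity trend, and 0 to 1 with 1 library left out. The 3 other interferon-stimulated genes called became 0 with no filter, 1 with no intensity trend, 5 with a value of at least 1 in all 6 libraries, 5 with equal totals, 5 with array weights, 8 by limma-voom and 0 in every fit with 1 library left out. Calls in interferon signalling went from 0 to 1 with array weights and 3 by limma-voom, and in RNA sensors from 0 to 4 by limma-voom. The causes were not tested. Lists of the 2-5A axis and cap methylation had 0 calls under every setting. Oas1b, Oas2 and Oas3 had at most 24 reads in any library, which limits the precision of their values.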
